A study of Mus musculus with 2 samples.

Results

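The genes of 10 subunits of RNA polymerase II, Polr2a to Polr2j, were followed in poly(A) RNA-seq of primary mouse pituitary cells, where 1 library was kept in RNA-Best and 1 in RNAlater. They were 10 of the 47069 genes in the deposited table. The genes were selected on earlier values of the same contrast, RNA-Best against RNAlater in CPM (counts scaled to the total of their library), and on the length of their transcripts, as subunits of 1 complex that differ in both. Their ratios between the libraries and the relation of these ratios to length are therefore a description and carry no test. The list was fixed by name with no threshold, and the remaining genes named for the same enzyme, Polr2k, Polr2l and Polr2m, are given further on.

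Both samples came from whole pituitaries of female C57BL/6 mice aged 10 to 12 weeks, randomly cycling, with no transgene or drug named in the labels. Each sample pooled 5 pituitaries and held about 500000 to 700000 cells, which were dispersed with enzymes and put into the stabilizer at once. RNA-Best is a reagent that keeps whole cells for later single-cell work, RNAlater is an established RNA stabilizer that the series calls its reference, and the comparison asked how transcript levels after RNA-Best compare with those after RNAlater. There were 2 libraries and 1 per stabilizer, so no difference between them has a replicate check, and stabilizer, animals, cell preparation and library preparation cannot be told apart.

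RNA polymerase II makes the messenger RNA of nuclear genes, and its subunits are needed in every cell type, including the hormone-secreting cells of the pituitary. Polr2a encodes RPB1, the largest subunit, which forms the active site together with RPB2 and carries a long tail of repeated heptads, the C-terminal domain (CTD), whose phosphorylation accompanies initiation, elongation and termination. The smaller subunits hold the core together, form a stalk near the RNA exit channel, or are shared with RNA polymerases I and III.

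The sequences shown first are those that set Polr2a apart from the other subunits. Its last coding exon, exon 29 of 29, holds the CTD, and the stretch below is 210 bases of it with 10 exact copies of the consensus heptad (chr11:69735208-69735417, minus strand, GRCm38, read from the GENCODE M21 transcript). The capitals mark the tyrosine codon that opens each repeat. Codons 1636 to 1705 of the 1970 codons are shown, and 21 exact copies lay between codons 1615 and 1803.
Polr2a heptad repeats: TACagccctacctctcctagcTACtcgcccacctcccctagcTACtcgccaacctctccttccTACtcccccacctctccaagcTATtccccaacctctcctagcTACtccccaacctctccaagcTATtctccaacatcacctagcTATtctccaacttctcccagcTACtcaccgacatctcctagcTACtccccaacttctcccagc
The repeats differ from each other at the DNA level. None of the 6690 windows of 51 bases (the read length) in the Polr2a transcript occurred at a second place in the same transcript, read on its own strand. None occurred in a transcript of another annotated gene, on either strand. Only exact matches were searched, so reads with mismatches were not covered.

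Promoters were read from RefSeq (GRCm38.p6) as 250 bases before to 50 after the RefSeq start. The RefSeq starts can differ from the GENCODE gene starts given further on, and the printed Polr2b window lies inside its GENCODE gene bounds. Of the 10 genes, 8 had a promoter, all but Polr2d and Polr2g. The 3 printed here are those of the gene with the lowest ratio between the libraries (Polr2a, chr11:69758584-69758883, minus strand), of its partner in the active site (Polr2b, chr5:77310234-77310533, plus strand) and of a subunit shared by all 3 polymerases (Polr2h, chr16:20717576-20717875, plus strand). Capitals mark any match, on either strand, to the motifs described in the next paragraph.
Polr2a promoter: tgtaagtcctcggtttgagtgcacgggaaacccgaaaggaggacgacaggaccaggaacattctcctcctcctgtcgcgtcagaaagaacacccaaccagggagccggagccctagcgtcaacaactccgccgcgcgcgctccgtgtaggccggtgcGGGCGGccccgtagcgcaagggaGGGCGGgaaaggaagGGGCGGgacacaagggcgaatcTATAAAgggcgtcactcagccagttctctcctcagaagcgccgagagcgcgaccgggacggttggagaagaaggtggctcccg
Polr2b promoter: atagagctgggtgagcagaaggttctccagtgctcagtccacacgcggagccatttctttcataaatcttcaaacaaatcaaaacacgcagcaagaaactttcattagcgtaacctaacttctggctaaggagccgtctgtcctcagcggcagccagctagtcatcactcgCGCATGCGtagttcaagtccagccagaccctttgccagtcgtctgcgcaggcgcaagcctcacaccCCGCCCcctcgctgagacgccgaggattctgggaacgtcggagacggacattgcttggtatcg
Polr2h promoter: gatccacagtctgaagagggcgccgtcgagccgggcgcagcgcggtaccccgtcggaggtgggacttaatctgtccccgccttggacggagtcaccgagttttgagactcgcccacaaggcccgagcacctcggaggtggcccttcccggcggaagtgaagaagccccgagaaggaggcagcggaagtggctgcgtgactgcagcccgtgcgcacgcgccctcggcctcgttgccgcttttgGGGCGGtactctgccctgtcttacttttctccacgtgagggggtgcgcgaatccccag

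The letters GGGCGG, the GC box, were found in 6 of the 8 promoters, against 35.6% of the 32817 mouse promoters of the same length. Polr2a had 3 of them between positions -93 and -50 relative to its RefSeq start, and Polr2e had 3 between positions -201 and -64. Polr2a was the gene with a TATA box (letters TATAAA) at the usual distance, from position -33 to -28. Polr2c also held TATAAA, but from position -151, and the letters were in 13.6% of all promoters. The CCAAT box, searched as CCAAT, was in 3 of the 8 (Polr2c, Polr2i and Polr2j) against 37.4% of all. A site of the ETS family, searched as CCGGAAG, was in 3 of the 8 (Polr2c, Polr2f and Polr2j) against 8.86%. The palindromic core of NRF1, searched as CGCATGCG, was in Polr2b and Polr2j, 2 of the 8 against 1.86%, and AAGATGG, a YY1 core, was in 0 of the 8 against 6.34%. Both strands were read, and no match overlapped another in the 8 promoters. The GC content of the printed promoters was 63.7% for Polr2a, 54.7% for Polr2b and 66.3% for Polr2h, and the median over all promoters was 52.7%. A match describes the letters in this window and says nothing of binding.

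The RNA-Best library held 53915047 counts and the RNAlater library 44917492, a ratio of 1.2, and both were scaled to CPM by their total. All 10 subunit genes averaged at least 10 CPM, so all passed the filter, an average of 1 CPM or more, that left 16504 genes. The tissue label was checked on 7 hormone genes, of which Prl stood at 235654 CPM with RNA-Best and 172302 CPM with RNAlater, and Gh at 61040 and 59379 CPM. All 7 were detected in both libraries and higher by CPM in RNA-Best. In bulk samples, fewer cells of a type and less RNA per cell cannot be told apart.

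Polr2a was 2.90-fold lower in RNA-Best than in RNAlater, while 8 of the other 9 subunit genes were higher in RNA-Best, and Polr2b was slightly lower. Log2 ratios of RNA-Best to RNAlater, computed with a pseudocount of 0.5 CPM, ran from -1.53 for Polr2a to 0.61 for Polr2g, a range of 2.14. The 8 higher genes were close together, between 0.11 and 0.61. The median of the 10 was 0.33, against -0.18 over the 16504 genes. By CPM, 2 of the 10 were lower in RNA-Best, against 67.0% of all genes. At least 2-fold lower was 1 of the 10, against 4.99% of all genes, and 0 were at least 2-fold higher, against 0.273% of all genes. These counts stand beside the background as a description, since the genes were chosen on this contrast.

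**Figure D1:**
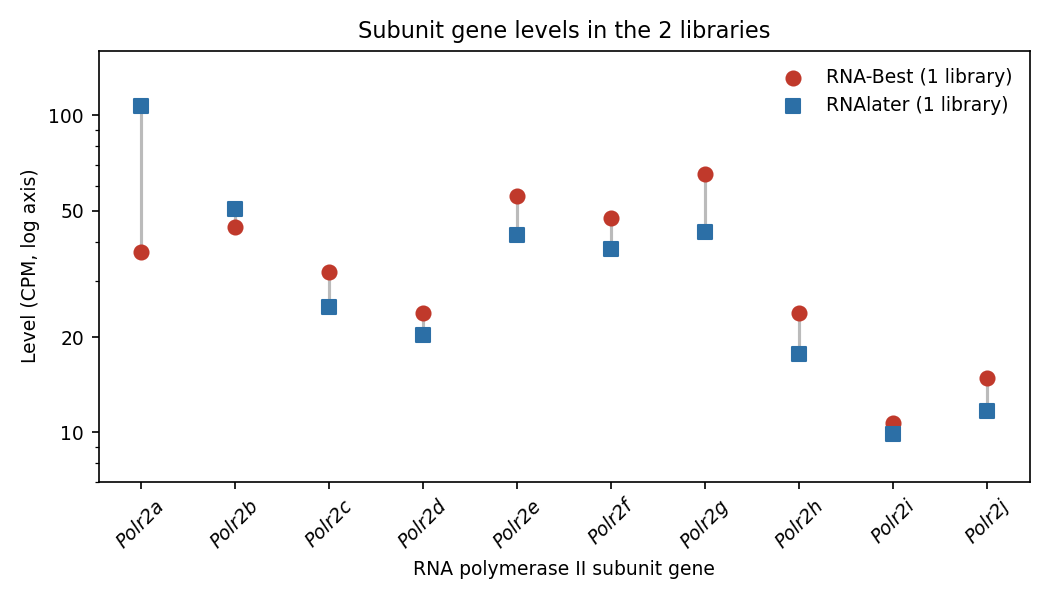
Level of each subunit gene in CPM (log axis) in the RNA-Best library (circles) and the RNAlater library (squares), 1 library each, joined by a line. Polr2a lies far apart, at 37.0 CPM after RNA-Best and 107 CPM after RNAlater, and the circle is above the square for the 8 genes from Polr2c to Polr2j.

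The catalytic core is made of RPB1 and RPB2. Polr2a, on chromosome 11 at 69733997 to 69758637 (minus strand, 29 exons in the principal transcript), had 1994 counts with RNA-Best and 4823 with RNAlater, which is 37.0 and 107 CPM. The log2 ratio was -1.53 with a 95% interval of -1.61 to -1.46. Intervals are exact conditional binomial ones on rounded counts without the pseudocount, and cover counting error only. Polr2b, the gene of RPB2, on chromosome 5 at 77310147 to 77349324 (plus strand, 25 exons), had 2404 and 2276 counts, which is 44.6 and 50.7 CPM, and its log2 ratio was -0.18 (-0.27 to -0.10). Polr2b was at the median of all genes, since its ratio minus that median was -0.01.

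RPB3 and RPB11, encoded by Polr2c and Polr2j, form the heterodimer on which the enzyme is assembled. Polr2c, on chromosome 8 at 94857450 to 94873535 (plus strand), had 1731 estimated counts with RNA-Best and 1114 with RNAlater, or 32.1 and 24.8 CPM, with a log2 ratio of 0.37 (0.26 to 0.48). Polr2j, on chromosome 5 at 136116631 to 136122947 (plus strand), had 802 and 525 counts, or 14.9 and 11.7 CPM, with a log2 ratio of 0.34 (0.19 to 0.51). Both members of the pair were higher in RNA-Best, by nearly equal ratios.

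The stalk of RPB4 and RPB7 lies near the RNA exit channel and binds the emerging RNA. Polr2g, which encodes RPB7 and lies on chromosome 19 at 8793127 to 8798577 (minus strand), had 3535 counts with RNA-Best and 1921 with RNAlater. Its levels of 65.6 and 42.8 CPM gave the highest ratio of the 10, 0.61 on the log2 scale (0.54 to 0.70). Polr2d, the gene of RPB4, on chromosome 18 at 31789159 to 31796701 (plus strand), had 1281 and 913 counts, which is 23.8 and 20.3 CPM, and its log2 ratio was 0.22 (0.10 to 0.35). Both stalk genes were higher in RNA-Best, Polr2g by more than Polr2d.

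RPB5, RPB6 and RPB8 are parts of all 3 nuclear RNA polymerases. Polr2e, the gene of RPB5, on chromosome 10 at 80035949 to 80039795 (minus strand), had 2999 and 1883 counts, equal to 55.6 CPM with RNA-Best and 41.9 CPM with RNAlater, and its log2 ratio was 0.40 (0.32 to 0.49). Polr2f, the gene of RPB6, on chromosome 15 at 79141009 to 79151774 (plus strand), had 2560 and 1701 counts, equal to 47.5 and 37.9 CPM, and its log2 ratio was 0.32 (0.24 to 0.42). The gene of RPB8, Polr2h, on chromosome 16 at 20717665 to 20722267 (plus strand), had 1281.5 and 795.5 estimated counts, equal to 23.8 and 17.7 CPM, and its log2 ratio was 0.41 (0.30 to 0.55). The shared subunits were thus higher in RNA-Best by like amounts, with a median log2 ratio of 0.40.

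RPB9, encoded by Polr2i on chromosome 7 at 30231948 to 30233390 (plus strand), helps the enzyme to proofread and to resume after arrest. Polr2i had the fewest counts of the 10, 577 in RNA-Best and 443 in RNAlater, or 10.7 and 9.86 CPM. Its log2 ratio of 0.11 had an interval of -0.06 to 0.30, so a difference was not detectable at this depth with scaling by the library total. The ratio of Polr2i was 0.28 by TMM and 0.29 by DESeq2 size factors, other scalings for which no intervals were computed. By the library total, 7 of the 10 genes had an interval above 0, 2 had one below 0, and Polr2i was the 1 whose interval held 0. Of the 16504 genes, the shares were 20.2%, 51.2% and 28.6%, a description since the 10 genes were chosen on these ratios. These counts depend on the scaling, as the ratio of Polr2b was -0.01 by TMM.

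The 10 genes from Polr2a to Polr2j together took 355.5 CPM of the RNA-Best and 365.0 CPM of the RNAlater library. Their reads were thus nearly alike in sum by the library total, while their division among the genes was not. These sums leave out the subunit genes Polr2k and Polr2l, and their ratio moves with the scaling. Polr2a took 10.4% of the summed CPM in RNA-Best and 29.4% in RNAlater. Without Polr2a, the sums were 318.5 and 257.6 CPM.

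Levels of different genes were compared per length, as CPM per kilobase (kb) of the longest annotated transcript. Polr2a was at 5.49 CPM per kb in RNA-Best, the lowest of the 10, and at 15.9 CPM per kb in RNAlater, where it ranked 6 of 10. The median of the other 9 was 23.2 CPM per kb in RNA-Best and 17.5 CPM per kb in RNAlater, so that the level of this median was 4.22 times that of Polr2a in RNA-Best and 1.10 times in RNAlater. RPB1 and RPB2 enter the enzyme in equal number, and the level of Polr2a per kb was 0.510 times that of Polr2b in RNA-Best and 1.30 times in RNAlater. With the median length of each gene's annotated transcripts these values were 0.160 and 0.408, so the order of the pair in RNAlater turned with the length used. Polr2g was the highest in both libraries, with 73.7 CPM per kb in RNA-Best and 48.1 CPM per kb in RNAlater, but in RNAlater Polr2b was the highest by median transcript length, at 81.1 CPM per kb, and Polr2f by coding length, at 99.4 CPM per kb. By coding length, Polr2a was again the lowest in RNA-Best but ranked 9 of 10 in RNAlater. There, the median of the other 9 was 2.17 times the level of Polr2a.

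The subunit levels were spread over 13.4-fold in RNA-Best, from Polr2a to Polr2g, and over 7.52-fold in RNAlater, from Polr2c at 6.39 CPM per kb to Polr2g. On the log2 scale, the standard deviation of the 10 levels per kb was 1.04 in RNA-Best and 0.74 in RNAlater. The low place of Polr2c came with its long annotated transcript of 3881 bases, since with the principal transcript of 1580 bases it stood at 20.3 CPM per kb in RNA-Best and 15.7 CPM per kb in RNAlater. With principal transcripts for all 10 genes, Polr2a was again the lowest in RNA-Best and ranked 7 in RNAlater, and the spread was 13.4-fold in RNA-Best and 3.99-fold in RNAlater. The other low genes were Polr2b, at 10.8 and 12.2 CPM per kb, and Polr2i, at 13.1 and 12.0 CPM per kb. Per-length levels depend on which transcript is expressed, which the gene counts do not show.

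**Figure D2:**
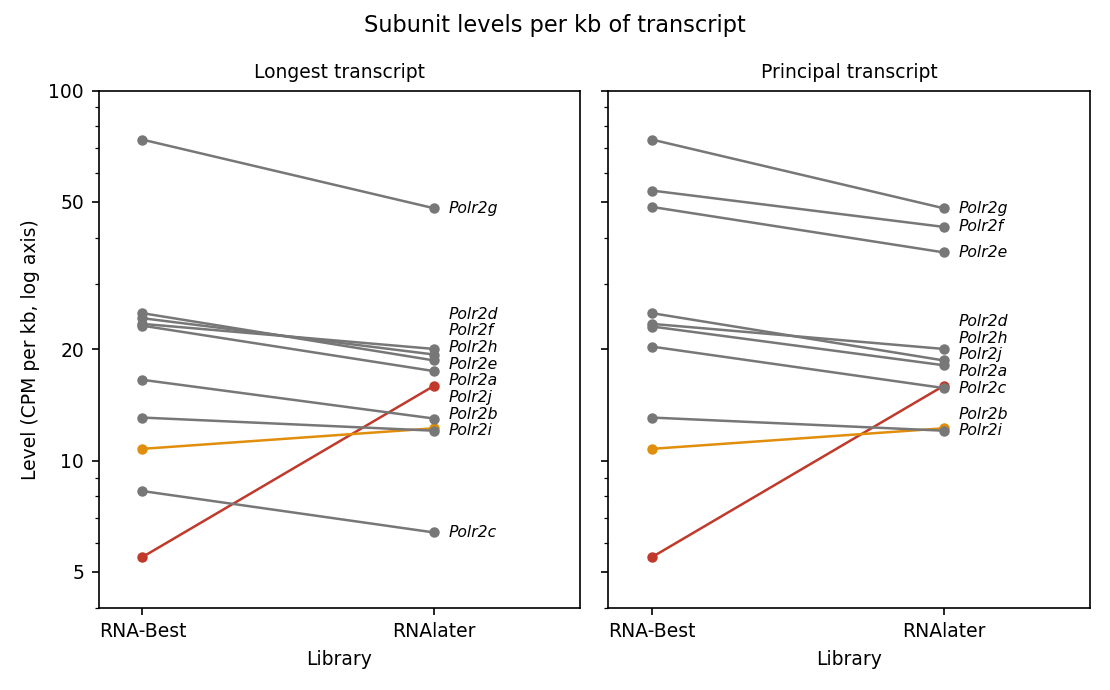
Level of each subunit gene in CPM per kb (log axis) in the RNA-Best and the RNAlater library, 1 line per gene, with the length of the longest transcript (left) or of the principal transcript (right). Polr2a (red) is the lowest gene in RNA-Best at 5.49 CPM per kb and lies among the others in RNAlater at 15.9 CPM per kb, and Polr2b (orange) goes from 10.8 to 12.2 CPM per kb.

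The longest annotated transcripts ran from 819 bases for Polr2i to 6740 bases for Polr2a, with Polr2b next at 4145 bases. The subunit lengths in codons had nearly the same order at the top, with 1970 codons in Polr2a and 1174 in Polr2b, then 275 in Polr2c and 210 in Polr2e, and 117 in Polr2j as the fewest. Spearman's rho of the log2 ratio and the longest transcript over the 10 genes was -0.43, but -0.055 with median transcript lengths and -0.18 with coding lengths. The 10 points share their libraries, and the relation rested on Polr2a and Polr2b, since rho was -0.22 without Polr2a and 0.12 without both. The 8 genes from Polr2c to Polr2j spanned 819 to 3881 bases with ratios between 0.11 and 0.61, and the longest of them, Polr2c, had a ratio of 0.37.

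Over all genes, the ratio fell with transcript length. The median log2 ratio was 0.28 in genes with a longest transcript up to 1 kb, -0.09 from 2 to 3 kb, -0.40 from 4 to 6 kb, -0.65 from 6 to 10 kb and -0.90 over 10 kb. At least 2-fold lower were 0.287% of the genes up to 1 kb, 20.9% of those from 6 to 10 kb and 42.4% of those over 10 kb. A smooth trend (LOWESS) of the ratio on length over 16443 genes gave the value that genes of the same length had on average. Polr2a was 0.91 below this trend, where the trend stood at -0.61, and its ratio was below the lower quartile, -0.93, of the 1757 genes from 6 to 10 kb. The difference of Polr2a from the trend was -0.60 by coding length and -1.10 by median transcript length. In the same length class and the same quintile of GC content, 268 genes had a median of -0.89.

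The differences of the subunits from the trend are given gene by gene, since the share of all genes above the trend was not computed. Polr2c was the highest at 0.65 above the trend, followed by Polr2e at 0.49, Polr2g at 0.42, Polr2f at 0.34 and Polr2h at 0.24. Polr2j at 0.14, Polr2b at 0.13, Polr2d at 0.06 and Polr2i at -0.10 differed less from the trend. For the subunits up to 1 kb, genes of the same length class and GC quintile were also set beside them. Their medians were 0.39 for Polr2h, 0.32 for Polr2j, 0.32 for Polr2i and 0.30 for Polr2g. The ratios of these subunits were 0.41, 0.34, 0.11 and 0.61. The standard deviation over the 10 genes was 0.61 for the ratios and 0.43 for their differences from the trend. These differences depended on the length a gene was given. By median transcript length Polr2d was at 0.29, Polr2j at 0.37, Polr2h at 0.50 and Polr2b at -0.17, and by coding length Polr2b was at 0.45. Polr2b had a ratio of -0.18, near the upper quartile of -0.17 of the genes from 4 to 6 kb. Polr2e and Polr2f owed their longest transcripts, 2403 and 1958 bases, to retained introns. With the principal transcripts of 1148 bases for Polr2e, 885 for Polr2f and 1580 for Polr2c, the differences were 0.24, 0.08 and 0.33.

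**Figure D3:**
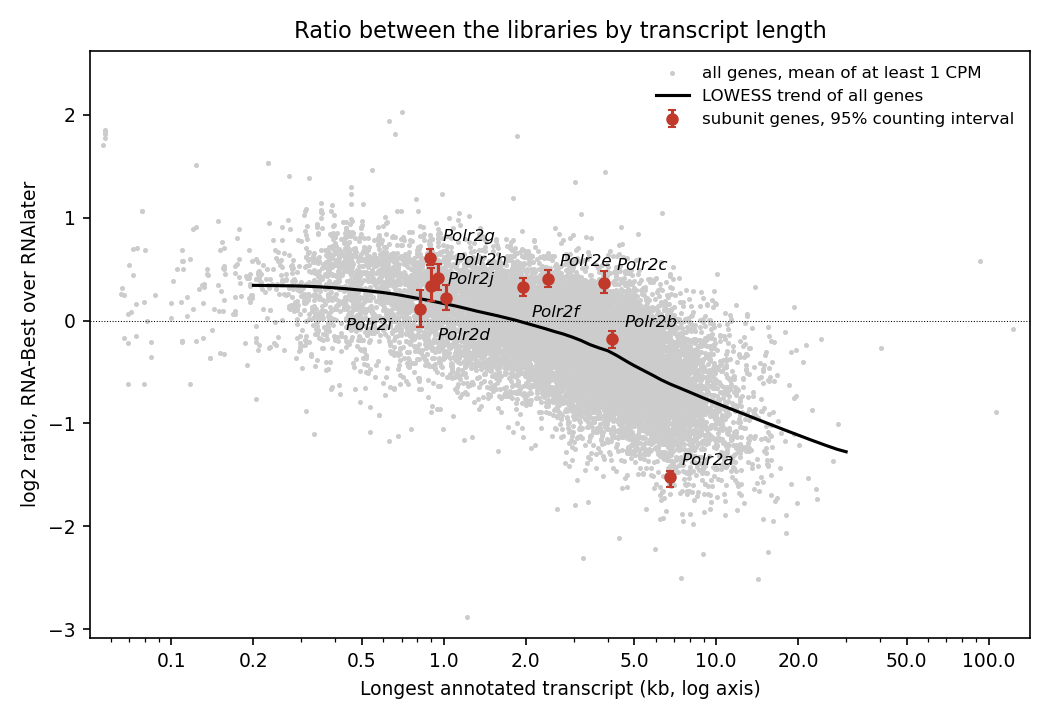
Log2 ratio of RNA-Best to RNAlater against the length of the longest annotated transcript in kb (log axis), for all genes averaging 1 CPM or more (grey points), with their LOWESS trend (black line) and the 10 subunit genes (red points with 95% counting intervals). Polr2a, at 6740 bases, lies 0.91 below the trend, and the other 9 subunits lie between 0.10 below and 0.65 above it.

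Some subunit genes share sequence with other genes, which limits their counts. Exons of Polr2i shared 325 bases, 26.8% of its exonic bases, with Tbcb on the opposite strand, a gene with 44.3 and 31.6 CPM in the respective libraries. The strand setting of the counting was not given in the sources used here, and without strand the reads of such a pair cannot be told apart. Opposite-strand exons also covered 18.1% of the exonic bases of Polr2c (Dok4), 15.9% of Polr2j (Lrwd1), 9.44% of Polr2f (1700088E04Rik), 5.43% of Polr2h (Clcn2) and 1.82% of Polr2b (Igfbp7). Polr2a, Polr2d, Polr2e and Polr2g had no exon overlap.

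Windows of 51 bases shared with other genes were found in the same subunits as the exon overlaps. Their shares differed, and some of the other genes did not overlap the subunit gene. Of the windows in the principal transcript, 62.4% of those in Polr2c were also found in another gene on either strand (AC133968.1, Dok4 or Gm11993), as were 35.8% in Polr2i, 23.4% in Polr2f, 21.1% in Polr2j and 17.9% in Polr2h. The share was 0.855% in Polr2b and 0 in Polr2a, Polr2d, Polr2e and Polr2g, so the genes with the lowest and the highest ratio were both free of shared windows. Whole counts were deposited in both libraries for 8 of the 10 genes, and the estimates of Polr2c and Polr2h were fractional. The levels of Polr2c and Polr2h are the less certain, and so are those of Polr2i, Polr2f and Polr2j. Whole counts do not show that reads over shared bases were assigned to the right gene.

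Of the other genes of the enzyme, Polr2k and Polr2l encode the smallest subunits, shared with RNA polymerases I and III, and Polr2m encodes Gdown1, which binds the finished enzyme. Polr2k stood at 15.5 CPM with RNA-Best and 10.6 CPM with RNAlater, and its log2 ratio was 0.52 (0.38 to 0.71), within the range of the 8 higher subunits. Polr2l was at 15.3 and 14.2 CPM, with a log2 ratio of 0.11 (-0.04 to 0.26). Polr2m was at 102 and 118 CPM, with a log2 ratio of -0.21 (-0.27 to -0.16).

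The other nuclear polymerases were described for their own large subunits. In RNA polymerase I, which makes ribosomal RNA, Polr1a encodes the largest subunit and stood at 9.48 CPM with RNA-Best and 20.97 CPM with RNAlater, for a log2 ratio of -1.11 (-1.30 to -0.99) and a transcript of 9216 bases. Polr1b, its partner in the active site, was at 7.68 and 11.8 CPM, with a ratio of -0.59. By CPM, 3 of the 8 genes of this list were higher in RNA-Best and 5 lower, against 67.0% lower over all genes. The 8 ran from Polr1a to Polr1c at 0.42, and their median lay 0.09 above the one over all genes.

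In RNA polymerase III, which makes transfer RNA and other short RNAs, Polr3a, the largest subunit, stood at 7.85 CPM with RNA-Best and 12.7 CPM with RNAlater, and its log2 ratio was -0.66 (-0.88 to -0.51). Polr3b, the second largest, was at 13.2 and 22.5 CPM and had the lowest ratio of the list, -0.75 (-0.91 to -0.63). Of the 11 genes, 3 were higher and 8 lower, against 67.0% lower over all genes. The median of the 11 lay 0.04 above the one over all genes. The lists of RNA polymerases I and III leave out the shared subunits Polr2e, Polr2f, Polr2h, Polr2k and Polr2l, which were all higher by CPM. The counts therefore do not describe the whole enzymes. In all 3 polymerases the gene of the largest subunit was lower in RNA-Best, as were 88.6% of all genes from 4 to 6 kb and 95.2% of those from 6 to 10 kb. The difference from the length trend was -0.34 for Polr1a and -0.24 for Polr3a.

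The general transcription factors bring RNA polymerase II to promoters. Against 67.0% lower over all genes, 9 of these 18 genes were lower and 9 higher, with no gene past 2-fold. They ran from Gtf2a1, a TFIIA gene, at -0.33 to Gtf2h4, a TFIIH gene, at 0.43, and their median was 0.18 above that of all genes. Of 21 genes for pausing, elongation and the enzymes of the CTD, 4 were higher and 17 lower, against 67.0% lower over all genes, with a median 0.12 below that of all genes (a difference of -0.12). Supt4a, part of the elongation factor DSIF, was the highest at 0.47. The lowest was Cdk12, the gene of a kinase of the CTD, which stood at 21.5 CPM with RNA-Best and 49.2 CPM with RNAlater, for a log2 ratio of -1.18 (-1.30 to -1.09). The other of the 2 genes past 2-fold, against 4.99% of all genes, was Supt6, a histone chaperone that travels with the enzyme, at 66.4 and 149 CPM and -1.16, a gene named after its value was seen.

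Among 10 genes for the assembly and nuclear import of the polymerase, 5 were higher and 5 lower, against 67.0% lower over all genes. The 10 ran from Rpap1 at -0.78 to Pih1d1 at 0.33, with a median 0.16 above that of all genes. Genes with a transcript over 4 kb were lower in RNA-Best in 2 of 2 cases for RNA polymerase I, 4 of 4 for RNA polymerase III, 2 of 2 for the general transcription factors, 8 of 8 for the elongation and CTD list and 1 of 2 for assembly. The exception was Gpn1, at 0.09. Of all 5593 genes with a transcript over 4 kb, 91.2% were lower, so these counts are near the background.

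**Figure D4:**
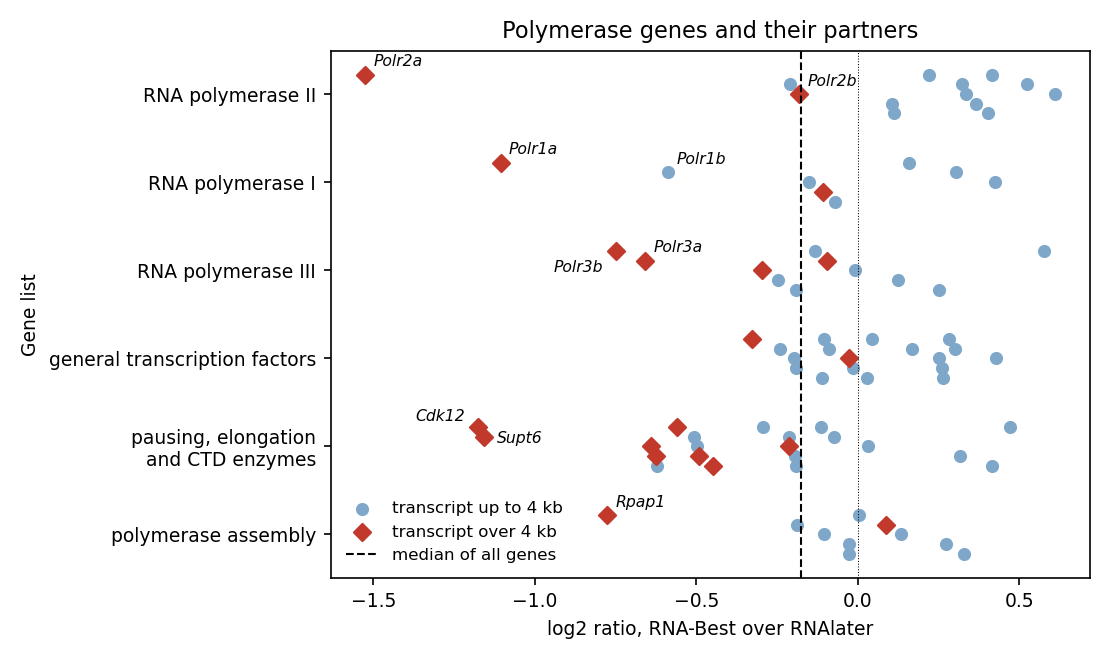
Log2 ratio of RNA-Best to RNAlater of the 13 genes named for RNA polymerase II and of the genes in 5 related lists, 1 point per gene, with diamonds for genes with a transcript over 4 kb and circles for the others. The dashed line is the median of all genes, -0.18, and the vertical place of points within a row only separates them. Polr2a at -1.53 is the lowest of all the points, followed by Cdk12 at -1.18, Supt6 at -1.16 and Polr1a at -1.11.

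The genes outside these lists whose values were nearest to Polr2a, by Euclidean distance in log2(CPM + 0.5) over the 2 libraries, were Utrn (37.4 CPM in RNA-Best, 103 CPM in RNAlater, ratio -1.45), Helz2 (36.8 and 101 CPM, ratio -1.44) and Kdr (36.6 and 115 CPM, ratio -1.63). All were protein-coding with long transcripts, of 12382 bases in Utrn, 10109 in Helz2 and 5924 in Kdr. Nearest to Polr2g, the subunit with the highest ratio, were Gm36964 (64.7 and 43.1 CPM, ratio 0.58), Gm27529 (67.5 and 41.8 CPM, ratio 0.68) and Gm2830 (65.5 and 44.7 CPM, ratio 0.55), which are annotated as a processed pseudogene, a miRNA and a processed pseudogene of 198, 80 and 385 bases.

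The scaling moves all ratios together. The median of all genes was -0.18 by the library total and -0.01 by TMM factors, a shift of 0.162, and the share of lower genes was 67.0% by the total and 51.3% by TMM. The median of the 10 subunits was higher than this all-gene median by 0.50 with the total and by 0.51 with TMM. Polr2b was -0.18 by the total, -0.01 by TMM and 0.00035 by DESeq2 size factors, where its sign flipped, while Polr2a was at -1.35 by TMM and -1.34 by DESeq2 size factors. By TMM, the genes lower in RNA-Best numbered 2 for RNA polymerase I, 5 for RNA polymerase III, 4 for the general transcription factors, 15 for the elongation and CTD list and 2 for assembly.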

How the data were processed

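Poly(A) RNA of dissociated primary mouse pituitary cells was sequenced as 51-base single reads after library preparation with a TruSeq mRNA kit. The authors deposited 1 table of reads per gene with 1 column per library, whose values are estimated counts, not normalized. The submitters' processing notes name STAR 2.5.1b, featureCounts 1.5.0-p1 and mm10. The strand setting and the option that divided reads (35.4% of RNA-Best and 34.9% of RNAlater values above 0 were fractional) are not given in the sources used here. Symbols, lengths and coordinates came from GENCODE M21 on GRCm38, where 46488 of 47069 identifiers (98.8%) matched. The study's own annotation release was an earlier one, stated for its cell line libraries.

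Samples were grouped by the stabilizer in the labels. The depth was 53915047 counts in RNA-Best and 44917492 in RNAlater, and this sets the width of the counting intervals. Log2 ratios used CPM by the library total, a pseudocount of 0.5 CPM and, over all genes, a mean of at least 1 CPM, which understates ratios of weakly expressed genes. Counts were rounded for the 95% intervals, which cover counting error only, for thinning and for 2 other scalings, TMM (edgeR 4.0.16) and size factors (DESeq2 1.42.0), run in R 4.3.3. The LOWESS trend (span 0.2) used statsmodels 0.14.6. With 1 library per group no test was made and no p-value is given. The calculations were tested on simulated data. Alternatives changed the scaling, pseudocount, depth, filter on low values and length, as the closing section gives.

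The members and the related gene lists were chosen with earlier results of these data known. Named genes were all members, Polr2k, Polr2l and Polr2m, the 2 largest subunits of RNA polymerases I and III, the ends of each list, and the 3 genes nearest to Polr2a and to the member with the highest ratio. The upper end of 1 list is not reported here.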

Additional observations from a re-analysis of the deposited data

How the results depend on the processing

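No paired analysis was possible because there was only 1 library per stabilizer, with no number that could pair them. The cause was not tested for any change given here. The median log2 ratio of the 10 subunits was 0.33 by the library total, 0.50 by TMM, 0.51 by DESeq2 size factors and 0.46 by a total without the 2 most abundant genes. Their range was 1.98 with a pseudocount of 5 CPM. By DESeq2 size factors 1 of the 10 subunits was lower in RNA-Best, against 50.3% of all genes, and Polr2b was at 0.00035. Of all genes, 51.3% were lower by TMM, 50.3% by DESeq2 size factors and 55.2% by the total without the 2 most abundant genes. In the same order, lower genes of the related lists numbered 2, 2 and 3 of 8 for RNA polymerase I. They numbered 4, 4 and 4 of 18 for the general transcription factors and 2, 2 and 2 of 10 for assembly. For RNA polymerase III they numbered 5 and 5 of 11 by TMM and DESeq2 size factors. Spearman's rho of ratio and length was -0.055 with median transcript lengths and -0.18 with coding lengths. In alternatives chosen after seeing the data, it was -0.32 with principal transcripts, -0.22 without Polr2a and 0.12 without Polr2a and Polr2b. The standard deviation of log2 levels per kb, in the order median, coding and principal length, was 1.02, 1.41 and 1.14 in RNA-Best and 0.81, 0.96 and 0.73 in RNAlater. The log2 level of Polr2a over the median of the others was -1.76 by median length and -3.08 by coding length in RNA-Best, and 0.15, -1.12 and -0.23 by median, coding and principal length in RNAlater. Differences from the length trend changed sign for Polr2b (-0.17 by median length), Polr2i (0.051 with no filter) and Polr2d (-0.042 with a mean of at least 10 CPM). Of all genes, 4.99% were at least 2-fold lower by the library total, 2.63% by TMM, 2.54% by DESeq2 size factors, 3.38% without the 2 most abundant genes and 2.02% with a pseudocount of 5 CPM, and at least 2-fold higher were 0.273%, 0.667%, 0.716%, 0.605% and 0.133%. Thinning RNA-Best to the RNAlater total and a pseudocount of 0.1 CPM changed none of the subunit counts. The depth and the scaling limit Polr2i, whose interval held 0 by the library total and whose ratio was 0.28 by TMM and 0.29 by DESeq2 size factors.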
